A study of Mus musculus with 15 samples.

Results

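The genes described here are 34 genes of glycolysis and pyruvate metabolism, taken by name from a fixed list and found, all 34, among the 21889 genes of the deposited gene count tables. They cover 6 roles: glucose entry and its first phosphorylation (4 genes), the upper steps of glycolysis (6), the fructose 2,6-bisphosphate enzymes (4), the lower steps (7), lactate formation and transport (4), and mitochondrial pyruvate use (9). RNA-seq of poly(A) RNA was available for 15 mouse cerebellar libraries, 3 in each of 5 groups. Cells labelled as granule neuron precursors (GNPs), the dividing cells that form cerebellar granule neurons, were sampled before birth (E15.5, genotype label Math1-GFP) and after it (P1, P7 and P14, labelled wild type). The tumour libraries (MB) were medulloblastoma cells labelled Ptch1 heterozygous, with no age given. All cells were purified on a Percoll gradient, which separates cells by density. Math1 is the former name of Atoh1, a GNP transcription factor, and the label appears at E15.5 alone, so age and genotype label cannot be told apart in that step. Nothing in the labels says that the 3 libraries of a group came from separate animals, so the p-values measure only the spread between these libraries, which may be technical.

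Glycolysis splits glucose into pyruvate in the cytosol. Pyruvate is then reduced to lactate and exported through monocarboxylate transporters, or carried into mitochondria, where pyruvate dehydrogenase turns it into acetyl-CoA and pyruvate carboxylase turns it into oxaloacetate. Dividing GNPs and Sonic hedgehog medulloblastomas, which arise where the receptor Ptch1 no longer restrains the pathway, are known for aerobic glycolysis and for their use of hexokinase 2 (Hk2), whereas mature neurons rely on hexokinase 1 (Hk1) and neuronal enolase (Eno2).

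Between 12597472 and 43443132 reads per library were counted in genes. The GNP transcription factor Atoh1 was present in every library, at 10.9 to 139 CPM (counts scaled to a library of 1e+06) in GNPs and at 236 to 322 CPM in MB, and the granule lineage factor Zic1 lay between 883 and 2182 CPM. Of 9 granule lineage markers, 2 were higher and 3 lower in MB than at P7 (median log2 difference -0.95), where 13.7% and 20.7% of all genes were. Against P14, 2 were higher and 6 lower (22.9% and 27.2% of all genes). Pax6 was at 118 to 294 CPM in MB and 491 to 858 CPM at P7. Neurod1 was at 295 to 573 CPM in MB and 1146 to 1868 CPM at P7. Markers of other cells also differed between groups. The summed level of 10 endothelial markers was 15.1 to 39.8 CPM at E15.5 and 497 to 826 CPM at P1, then 374 to 456 CPM (P7), 1031 to 1093 CPM (P14) and 29.7 to 47.8 CPM (MB), and none of the 10 was at 0 throughout a group. The summed level of 10 oligodendrocyte markers was 96.5 to 121 CPM at E15.5 and 6669 to 7201 CPM at P14. The library labelled P1 replicate 3 stood apart from the other P1 libraries, with 4300 CPM of these oligodendrocyte markers against 642 and 1084 CPM, and with 102 CPM of Gabra6, a receptor subunit of mature granule neurons, against 1.12 and 12.5 CPM. Gabra6 was at 2.54 to 10.3 CPM at P7 and at 161, 202 and 164 CPM at P14. Atoh1 was at 11.7, 10.9 and 13.1 CPM at P14, against 124, 138.5 and 124 CPM at E15.5. How many of the P14 cells were dividing precursors was not tested. The gene tables also fall into a pair of sets by how they were counted: for the gene Tsnax, the gene-table count was at most 0.273% of the transcript-table count in E15.5 replicates 1 and 3, the 3 P7 libraries and MB replicate 1 (the set of P7), and 92.4% to 94.8% in the other libraries (the set of P1 and P14). For all 33 matched glucose metabolism genes the ranges of this ratio overlapped between the sets. The mean ratio was still lower in the set of P7 for Mpc1 (log2 -0.74), Pgam1 (-0.40), Gapdh (-0.29) and Pgk1 (-0.27). For P7 against P1 or P14, age and counting set cannot be told apart. In bulk libraries such as these, fewer cells of a type and less RNA per cell cannot be told apart.

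All 34 genes passed the filter on low counts, but the gene and transcript tables did not count all of them alike. The gene table leaves out reads with several alignments, and for some genes it held far fewer reads than the deposited transcript table. Of 33 genes that could be matched to the transcript table, 27 kept 80% or more of their transcript counts in the gene table. Gapdh kept 0.444%, Pgam1 5.43%, Pgk1 15.1%, Mpc1 20.7% and Eno1 28.0%. The cause of these low shares was not tested. The values of these 5 genes are uncertain, and the transcript table is given beside them. The triose phosphate isomerase gene Tpi1 was not matched to that table.

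**Figure D1:**
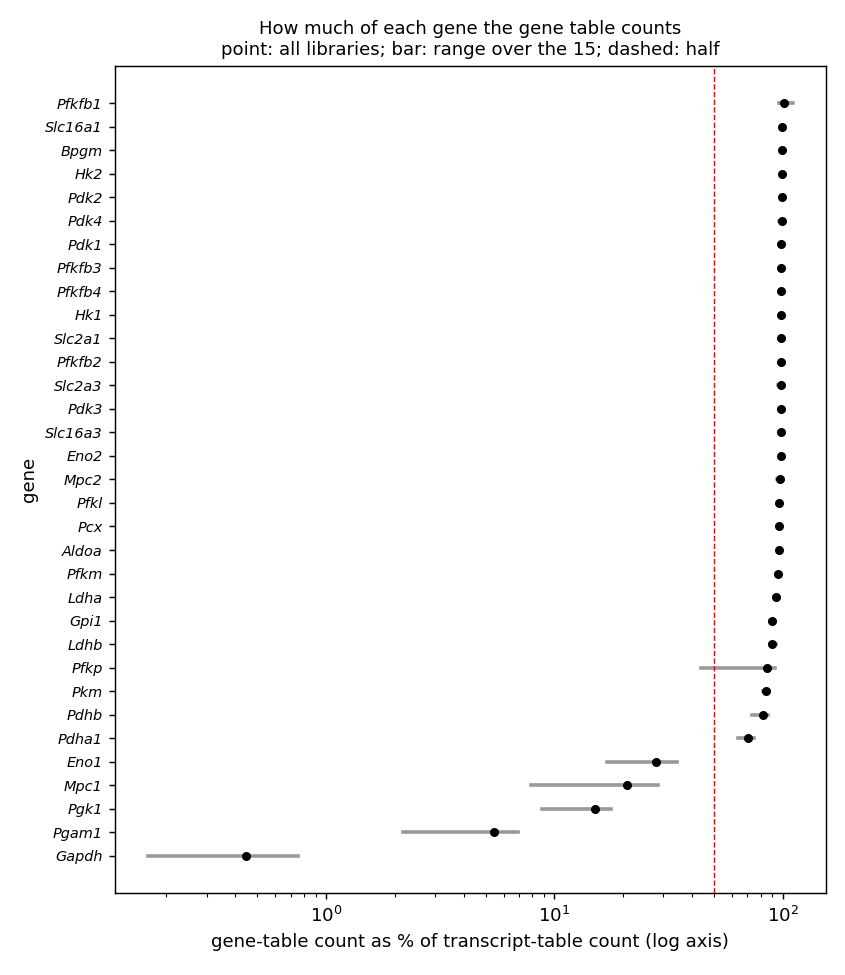
Share of each gene's transcript-table reads that the gene table holds, on a log axis in percent; points are totals over 15 libraries, bars the range over libraries and the dashed line 50%. Gapdh, Pgam1, Pgk1, Mpc1 and Eno1 lie below the line and the other 28 genes lie above it.

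The stretches of DNA before the start sites of 5 genes of glucose phosphorylation, glucose entry and lactate are shown as a description. They are the 250 bases before the start in RefSeq's annotation (GRCm38.p6), written 5′ to 3′ on the gene's own strand. Capitals mark ACGTG, the core of the hypoxia response element, or GCGTG, on either strand.
Hk2, chr6:82774455-82774704, minus strand: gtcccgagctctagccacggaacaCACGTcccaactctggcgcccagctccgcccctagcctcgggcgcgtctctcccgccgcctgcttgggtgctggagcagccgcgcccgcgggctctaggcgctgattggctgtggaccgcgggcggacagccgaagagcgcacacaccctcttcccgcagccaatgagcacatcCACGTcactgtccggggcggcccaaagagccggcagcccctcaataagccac
Slc2a1, chr4:119108495-119108744, plus strand: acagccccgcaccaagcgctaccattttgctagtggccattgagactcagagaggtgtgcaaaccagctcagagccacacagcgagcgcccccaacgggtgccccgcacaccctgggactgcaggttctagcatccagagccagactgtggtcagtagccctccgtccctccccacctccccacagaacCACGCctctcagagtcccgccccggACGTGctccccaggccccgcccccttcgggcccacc
Ldha, chr7:46845554-46845803, plus strand: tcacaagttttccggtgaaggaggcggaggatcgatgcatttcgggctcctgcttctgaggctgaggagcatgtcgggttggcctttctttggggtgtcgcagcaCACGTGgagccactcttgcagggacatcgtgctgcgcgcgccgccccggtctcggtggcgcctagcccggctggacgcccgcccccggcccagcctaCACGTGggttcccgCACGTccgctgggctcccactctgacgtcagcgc
Slc16a1, chr3:104638414-104638663, plus strand: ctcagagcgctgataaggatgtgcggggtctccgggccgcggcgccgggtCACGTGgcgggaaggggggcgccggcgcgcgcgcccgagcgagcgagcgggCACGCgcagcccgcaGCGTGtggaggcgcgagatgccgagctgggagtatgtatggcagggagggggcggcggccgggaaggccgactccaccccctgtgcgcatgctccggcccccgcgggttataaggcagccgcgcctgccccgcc
Slc16a3, chr11:120948817-120949066, plus strand: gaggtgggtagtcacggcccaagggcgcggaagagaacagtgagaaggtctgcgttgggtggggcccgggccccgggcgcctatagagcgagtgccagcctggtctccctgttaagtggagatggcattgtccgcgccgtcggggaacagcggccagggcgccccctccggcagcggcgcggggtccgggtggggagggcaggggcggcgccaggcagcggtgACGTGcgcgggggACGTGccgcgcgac
ACGTG on either strand was found in 20 of the 53 annotated windows of 33 of these genes (37.7%), and in 16.6% of all 32851 windows of this length. GCGTG was found in 49.1% of the 53 windows and 28.2% of all windows. CACGTG, which holds ACGTG on both strands, was found in 13.2% and 6.02%. The first of 2 Ldha windows held 5 matches to ACGTG, 4 of them in 2 copies of CACGTG. All 5 windows shown hold ACGTG, which 16 of the 33 genes had in at least 1 window. Those without it were Hk1, Gpi1, Pfkl, Pfkp, Tpi1, Pfkfb1, Pfkfb4, Gapdh, Bpgm, Eno1, Eno2, Ldhb, Mpc1, Mpc2, Pdha1, Pdk1 and Pdk4. Several windows of 1 gene overlap, and a match is a description of these letters and not a bound site. Whether the level of any gene depends on these stretches was not tested.

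Of the 34 genes, 25 differed among the 4 ages (edgeR's quasi-likelihood test with Benjamini-Hochberg adjustment over 15259 genes, FDR under 0.05), where 55.7% of all genes tested did. The step from E15.5 to P1 held most of these calls. There 13 of the 34 genes fell and 7 rose, against 20.9% and 25.4% of all genes (46.3% in either direction), and their median log2 change was -0.26, where the median over all genes was 0.03. Between P1 and P7, 2 genes fell (1.74% of all genes did) and 0 rose, with 0 at an unadjusted p under 0.05 and 0 by DESeq2 (1.40% of all genes rose, 3.15% changed in either direction). Between P7 and P14, 4 genes rose (5.81% of all genes) and 0 fell, with 1 at an unadjusted p under 0.05 and 0 by DESeq2 (4.51% of all genes fell, 10.3% changed in either direction). The median change of the 34 genes from P7 to P14 was 0.34, and 30 of them had a value above 0. Over all genes the median was -0.005, with quartiles at -0.32 and 0.43. Between P1 and P14, 4 genes rose (3.63% of all genes) and 0 fell, with 1 at an unadjusted p under 0.05 and 1 by DESeq2 (5.31% of all genes fell, 8.94% changed in either direction). The 4 were Pfkm, Aldoa, Eno2 and Slc16a1, and all 4 calls were lost when any of P1 replicates 1 and 2 or the 3 P14 libraries was left out (FDR 0.0750 to 0.231). Without the library labelled P1 replicate 3 all 4 rose, together with Hk1, Mpc1 and Pdk2, and Pfkfb1 fell. With the counting set as a term, the Slc2a1 and Slc16a1 falls from P1 to P7 (FDR 0.197 and 0.195) and the rises of Slc2a1 (FDR 0.0532), Aldoa (FDR 0.0839) and Eno2 (FDR 0.0954) from P7 to P14 were not called.

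MB was lower than GNPs in many of these genes. Against P7, 10 of the 34 were lower and 3 were higher, where 20.7% and 13.7% of all genes were (34.5% together), and the median log2 difference was -0.22 against 0.02 over all genes. Against P14, 17 were lower and 3 higher, where 27.2% and 22.9% of all genes were (50.0% together), and the median difference was -0.68 against 0.01. These comparisons share the MB libraries and are not independent. The levels of Hk1, Pfkl, Pfkm, Pfkp, Tpi1, Eno2, Ldha, Slc16a3 and Pdk1 in all 3 MB libraries lay below those of all GNP libraries, which is 9 of 34 genes, where 11.6% of all genes did so. Hk2 and Gapdh lay above, where 8.43% of all genes did so, but in the transcript table Gapdh in MB overlapped with E15.5. Among the 28 genes with at least 50% of their transcript counts in the gene table, 9 were lower and 2 higher in MB than at P7, and 14 were lower and 2 higher than at P14.

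**Figure D2:**
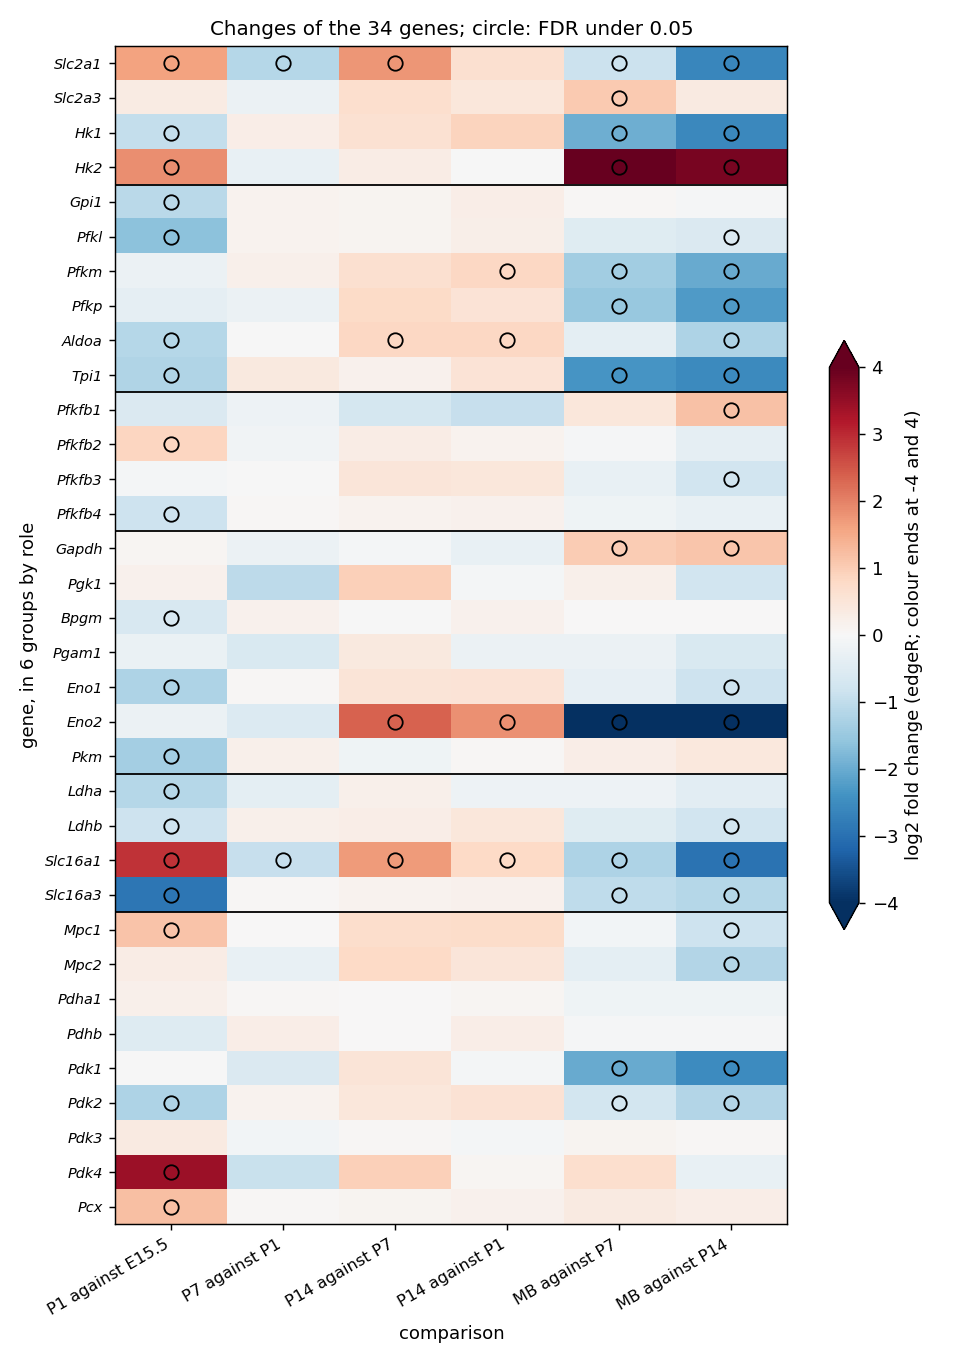
Log2 difference of each of the 34 genes (rows, in 6 groups by role) in 6 comparisons (columns), from edgeR; colour ends at -4 and 4 and a circle marks an FDR under 0.05. Circles are most frequent in P1 against E15.5 and in MB against P14, with 20 in each, and Hk2 is the darkest red of the MB columns.

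Slc2a1 encodes GLUT1, the basal glucose transporter, which is also the transporter of the brain endothelium. Its level was 28.5, 25.9 and 42.2 CPM at E15.5, 75.7, 107 and 113 CPM at P1, 55.7, 43.5 and 35.8 CPM at P7, 145, 161 and 152 CPM at P14 and 16.3, 29.0 and 29.0 CPM in MB. The libraries of P1, P7 and P14 did not overlap with each other, and MB overlapped with E15.5 alone. Slc2a1 (chr4:118781316-118809935 in mm9, plus strand) rose from E15.5 to P1 by 1.61 ± 0.26 (log2, SE, FDR 1.66e-04), fell from P1 to P7 (log2 -1.13, FDR 0.0296) and rose from P7 to P14 by 1.76 (FDR 0.00510). It was lower in MB than at P7 (-0.86, FDR 0.0158) and P14 (-2.62, FDR 1.86e-06). The fall from P1 to P7 was not called when P1 replicate 2 (FDR 0.154) or any of the P7 replicates (FDR 0.0585 to 0.109) was left out, and the difference between MB and P7 was not called without P7 replicate 1 (FDR 0.104) or MB replicate 1 (FDR 0.0502). The 10 endothelial markers changed in the same directions as Slc2a1. All 10 rose from E15.5 to P1 (median log2 change 4.79), and from P1 to P7 their median was -0.63, with 0 called. From P7 to P14, 4 of 10 rose (median 1.13), and all 10 were lower in MB than at P7 (median -3.30). Medians of the 10 oligodendrocyte markers had the same signs (4.28, -0.375, 1.68 and -3.47), as had those of 9 astroglial markers (3.88, -0.197, 0.68 and -1.19). In each of these 2 lists, 2 genes were higher in MB than at P7. The part of any of these cells in the values of Slc2a1 was not tested.

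Slc2a3, the neuronal high-affinity transporter GLUT3, varied less. Its level ran from 34.5 to 40.6 CPM at E15.5 and from 39.8 to 62.2 CPM at P1. It was 32.3 to 47.0 CPM at P7, 59.0 to 69.9 CPM at P14 and 62.4 to 97.2 CPM in MB libraries. It was 2.05-fold higher in MB than at P7 (log2 1.03 ± 0.22, FDR 0.00168), with no overlap between the libraries. The difference from P14 was 0.37 on the log2 scale and was not called. It was 0.54 and called without MB replicate 1 (FDR 0.0383), and 0.57 within the set of P1 and P14. The difference from P7 was smaller, at 0.65, within the set of P7, whose 1 tumour library was taken to vary like the others.

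**Figure D3:**
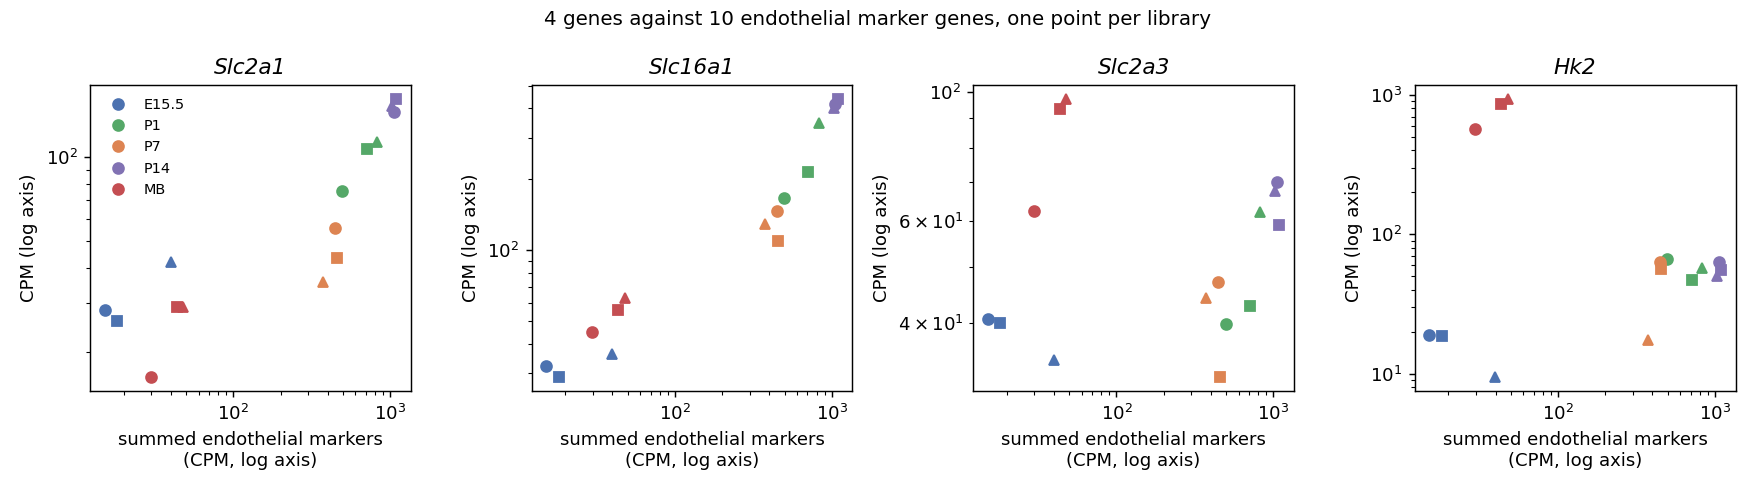
Level of 4 genes (CPM, log axis) against the summed level of 10 endothelial markers (CPM, log axis), 1 point per library, coloured by group. Slc2a1 and Slc16a1 are highest in the P14 libraries, which also hold 1031 to 1093 CPM of the markers, while Hk2 and Slc2a3 are highest in MB libraries, which hold 29.7 to 47.8 CPM.

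Hk2 had the largest increase in MB of the 34 genes. Its level was 19.0, 18.5 and 9.45 CPM at E15.5, 66.1, 47.0 and 57.8 CPM at P1, 63.7, 56.5 and 17.5 CPM at P7, 63.0, 55.7 and 50.2 CPM at P14 and 571, 860 and 938 CPM in MB. All MB libraries lay far above every GNP library, whose highest value was 66.1 CPM. Hk2 (chr6:82675019-82724448 in mm9, minus strand), an inducible hexokinase bound to mitochondria, was 17.2-fold higher in MB than at P7 (log2 4.10 ± 0.42, FDR 2.97e-06) and 14-fold higher than at P14 (3.81 ± 0.41, FDR 3.44e-06). It also rose 3.66-fold from E15.5 to P1 (1.87 ± 0.39, FDR 0.00125). Between the postnatal ages its values were -0.31, 0.29 and -0.02 on the log2 scale, none of them called. P7 replicate 3 was the lowest postnatal library. The Hk2 changes were called in every alternative setting tried.

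Hk1, the hexokinase of most of the adult brain, went the other way. Its level was 164, 195 and 171 CPM at E15.5, 64.0, 74.2 and 133 CPM at P1, 120, 95.3 and 114 CPM at P7, 186, 150 and 162 CPM at P14 and 18.1, 33.7 and 32.3 CPM in MB. MB was below all 12 GNP libraries, and P1 and P7 overlapped because the library labelled P1 replicate 3 lay above all P7 libraries. Hk1 (chr10:61731603-61803290 in mm9, minus strand) was 3.91-fold lower in MB than at P7 (log2 -1.97 ± 0.27, FDR 5.14e-05) and 5.93-fold lower than at P14 (-2.57 ± 0.28, FDR 3.36e-06). Within the set of P7 the first value was -2.56. It fell from E15.5 to P1 (-0.97 ± 0.26, FDR 0.00793). From P1 to P14 the change was 0.88 (FDR 0.0505), and without the library labelled P1 replicate 3 it was 1.27 and was called (FDR 0.00292).

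**Figure D4:**
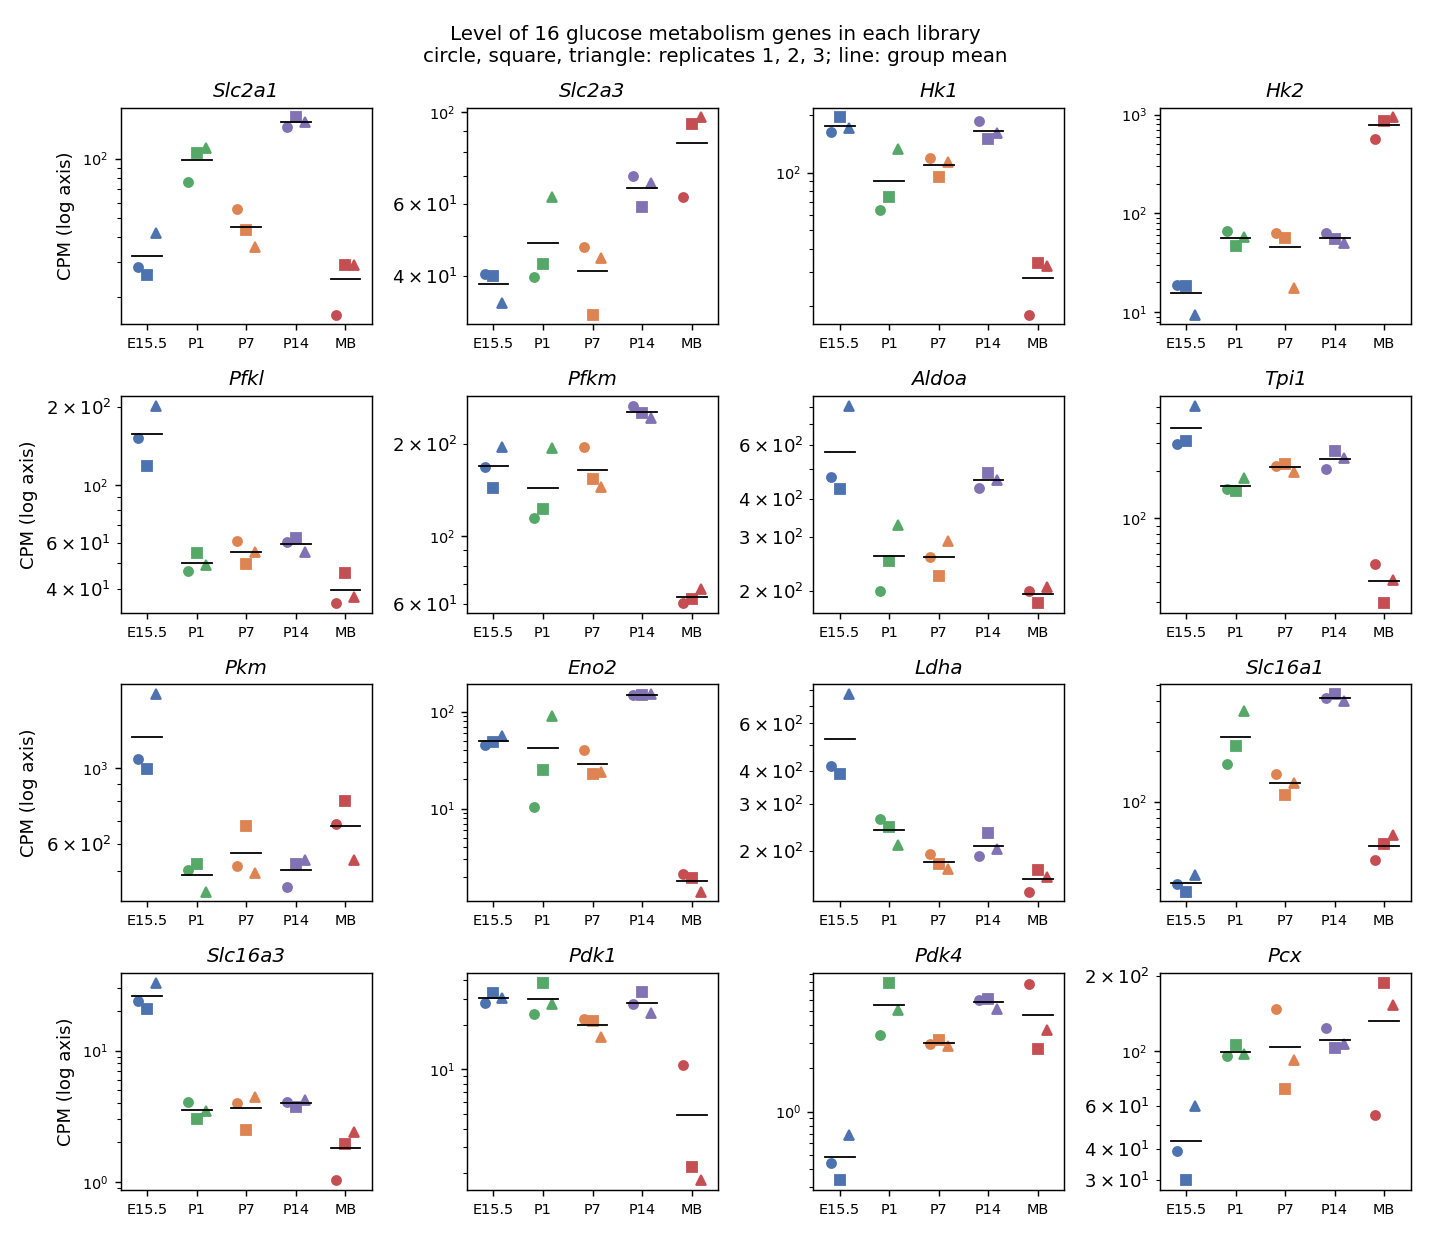
Level of 16 of the genes in each library (CPM, log axes that differ between panels), with a circle, square or triangle for replicates 1, 2 and 3 and a line at the group mean. Hk2 in MB lies at 571 to 938 CPM above a GNP maximum of 66.1 CPM, while Hk1, Pfkl, Pfkm, Tpi1, Eno2, Ldha, Slc16a3 and Pdk1 have all MB points below all GNP points.

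The upper steps turn glucose 6-phosphate into triose phosphates. From E15.5 to P1, 4 of these 6 genes fell, where 20.9% of all genes did: glucose-6-phosphate isomerase (Gpi1, log2 -1.08), the liver-type phosphofructokinase subunit Pfkl (-1.64), aldolase A (Aldoa, -1.13) and Tpi1 (-1.20). The other members, the muscle-type and platelet-type phosphofructokinase subunits Pfkm and Pfkp, were not called in that step. Pfkp, at -0.36, was called at -0.71 without E15.5 replicate 3 (FDR 0.0429), at -0.84 with the counting set as a term (FDR 0.0476) and at -0.70 within the set of P1 and P14 (FDR 0.0481). Pfkm was called without P1 replicate 3 (-0.52, FDR 0.0355). Pfkl stood at 151, 118 and 201 CPM at E15.5 and at 46.8 to 62.5 CPM in the 9 postnatal libraries, so that E15.5 was set apart from all of them (3.12-fold, SE of log2 0.19, FDR 1.06e-05). Aldoa stood at 470, 432 and 804 CPM at E15.5, 200, 251 and 329 CPM at P1, 259, 225 and 292 CPM at P7, 434, 487 and 460 CPM at P14 and 201, 183 and 206 CPM in MB. It was thus high at both ends of the time course and low between them. Aldoa rose from P7 to P14 by 0.83 (FDR 0.0360) and from P1 to P14 by 0.82 (FDR 0.0416), and the first call was lost without any of the 6 libraries compared (FDR 0.0562 to 0.148). Pfkm rose from P1 to P14 by 0.82 (FDR 0.0238), from 115, 123 and 194 CPM to 267, 254 and 243 CPM, without overlap.

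In MB, 3 of the 6 genes were lower than at P7 (20.7% of all genes were) and 3 were not called. Pfkl, at -0.49 (FDR 0.0568), was called by DESeq2 (-0.47, FDR 0.0480) and without MB replicate 2 (-0.61, FDR 0.0397). Tpi1 was at 51.3, 29.3 and 41.1 CPM in MB and at 149 to 510 CPM in GNPs, 5.17-fold below P7 (log2 -2.37 ± 0.24, FDR 2.70e-06). Pfkm was at 60.6, 62.3 and 67.3 CPM in MB and at 115 to 267 CPM in GNPs, 2.60-fold below P7 (-1.38 ± 0.20, FDR 8.65e-05). Pfkp was at 12.3, 22.6 and 24.98 CPM in MB and at 45.7 to 107 CPM in GNPs, 2.84-fold below P7 (-1.50 ± 0.31, FDR 0.00147, and -2.16 within the set of P7). For Tpi1, Pfkm and Pfkp, MB did not overlap with any GNP library. Against P14, 5 of the 6 genes were lower (27.2% of all genes were), with Pfkl (-0.59, FDR 0.0163) and Aldoa (-1.23) added. The Pfkl call was lost without P14 replicate 2 (FDR 0.0538) or MB replicate 3 (FDR 0.0517). Gpi1 did not pass the test in MB, at 155 to 195 CPM against 151 to 190 CPM in the 9 postnatal GNP libraries.

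The 4 bifunctional enzymes that make or remove fructose 2,6-bisphosphate, an activator of phosphofructokinase, had 2 calls in the first step (46.3% of all genes were called), 2 in MB against P14 (50.0% of all genes) and 0 against P7, where 0 had an unadjusted p under 0.05 and DESeq2 called 0. From E15.5 to P1, Pfkfb2 rose from 25.1 ± 2.08 to 45.2 ± 6.41 CPM (SD, n = 3, log2 0.85, FDR 0.00111) and Pfkfb4 fell from 35.6 ± 6.46 to 19.9 ± 1.40 CPM (-0.84, FDR 0.00336). No library of the first age overlapped with one of the second for either gene. In MB, Pfkfb1 was higher than at P14 (1.16, FDR 0.00645) at a level of 2.35 to 3.89 CPM, and Pfkfb3, whose product strongly favours synthesis, was lower (-0.78, FDR 0.0162). The Pfkfb3 call was lost without P14 replicate 1 (FDR 0.0659), MB replicate 2 (FDR 0.0747) or MB replicate 3 (FDR 0.0590).

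Of the 7 genes of the lower steps, the enolase and pyruvate kinase genes held most of the calls in the gene table. Gapdh, Pgk1 and Pgam1 have a low share of their transcript counts there, and in the transcript table Gapdh changed by -1.37 and Pgam1 by -0.65 from E15.5 to P1 (log2). Pkm, which encodes the muscle and embryonic pyruvate kinases through alternative exons that these counts do not separate, stood at 1063, 993 and 1647 CPM at E15.5, at 434 to 677 CPM in the postnatal libraries and at 686, 802 and 535 CPM in MB. E15.5 lay above all other libraries. Pkm fell 2.55-fold from E15.5 to P1 (log2 -1.35 ± 0.23, FDR 2.42e-04) and was not called in any later comparison. Bpgm, which makes 2,3-bisphosphoglycerate, fell by 0.64 in the same step (FDR 0.0142), a call lost without E15.5 replicate 3 (FDR 0.0506) or P1 replicate 2 (FDR 0.0522). It was -0.35 with the counting set as a term (FDR 0.195) and -0.33 within the set of P1 and P14 (FDR 0.106).

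Eno2, the neuronal enolase, stood at 44.9, 48.3 and 56.4 CPM at E15.5, 10.51, 24.9 and 90.9 CPM at P1, 40.2, 22.5 and 23.9 CPM at P7, 150, 147 and 151 CPM at P14 and 2.10, 1.93 and 1.40 CPM in MB. P14 was the highest group and MB the lowest, with no overlap with any other group, while the P1 libraries spanned the range of E15.5 and P7. Eno2 (chr6:124710073-124719691 in mm9, minus strand) rose 5.16-fold from P7 to P14 (log2 2.37 ± 0.53, FDR 0.0153). It was 15.9-fold lower in MB than at P7 (-3.99 ± 0.59, FDR 8.84e-05) and 81.9-fold lower than at P14 (-6.36 ± 0.64, FDR 1.78e-06). The rise from P7 to P14 was not called without P7 replicate 2, P7 replicate 3 or P14 replicate 2 (the highest FDR was 0.0858). From P1 to P14 the change was 1.82 (FDR 0.0411), and it was 3.07 without the library labelled P1 replicate 3. Without that library Eno2 also fell from E15.5 to P1 (-1.49, FDR 0.00310), which it did not with all 3. The neuron markers of the Purkinje and GABAergic list were also low in MB. They summed to 27.1 to 43.6 CPM against 341 to 903 CPM at P7, with 7 of 8 lower (20.7% of all genes were). From P7 to P14, where Eno2 rose, their median log2 change was -0.805, with 7 of 8 below 0. The granule lineage gene Cbln3 was, like Eno2, highest at P14 (243 to 261 CPM) and, within P1, in replicate 3 (159 CPM). It was at 3.25 to 11.5 CPM in MB, but at 2.42 to 3.42 CPM at E15.5. The summed oligodendrocyte markers were also highest at P14 and lowest at E15.5. The part of any of these cells in the Eno2 values was not tested.

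The other 4 genes of the lower steps are among those with a low share of their transcript counts in the gene table. Eno1, the ubiquitous enolase, stood at 147, 114 and 242 CPM at E15.5 and 69.9 to 74.3 CPM at P1, a fall of 1.23 (log2, FDR 0.00781), and fell by 1.01 in the transcript table (FDR 0.00557). Within the set of P1 and P14 the change was -0.68 and was not called (FDR 0.0820). In MB it was 28.8, 92.5 and 55.4 CPM, with a difference from P14 of -0.84 (FDR 0.0472) in the gene table and -0.40 (FDR 0.216) in the transcript table, and the gene-table call was lost without MB replicate 1 (FDR 0.150), MB replicate 3 (FDR 0.108), P14 replicate 2 (FDR 0.139) or P14 replicate 3 (FDR 0.102). Gapdh, often used as a reference gene, depended on the table. In the gene table it was at 2.76 to 6.46 CPM in GNPs and 7.35 to 11.5 CPM in MB, and its change from E15.5 to P1 was not called (0.09). In the transcript table it was at 1557, 1515 and 2760 CPM at E15.5, 808, 737 and 622 CPM at P1, 729, 1183 and 831 CPM at P7, 598, 712 and 689 CPM at P14 and 1484, 1574 and 1353 CPM in MB. There it fell from E15.5 to P1 (-1.37, FDR 5.52e-04), was higher in MB than at P14 (1.10, FDR 0.00207) and had a difference from P7 of 0.65 (FDR 0.0570). Gene-table calls for Gapdh in MB were 1.03 against P7 (FDR 0.0204), lost without P7 replicate 3 (FDR 0.0828) or MB replicate 1 (FDR 0.0543), and 1.10 against P14 (FDR 0.00986), lost without P14 replicate 1 (FDR 0.0528). Pgk1 and Pgam1 had no call by edgeR in any pair of groups tested in the gene table. Over the 4 ages edgeR called Pgk1 (FDR 0.0435), a call kept in 3 of 12 fits with 1 library left out. DESeq2 called Pgk1 from P1 to P7 (-1.06, FDR 0.0188), from P7 to P14 (0.99, FDR 0.0198) and in MB against P14 (-0.78, FDR 0.0315), and Pgam1 was lower in MB than at P7 within the set of P7 (-1.60, FDR 0.0237). In the transcript table Pgam1 fell from E15.5 to P1 (-0.65, FDR 0.00615) and Pgk1 was lower in MB than at P14 (-0.59, FDR 0.0298).

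All 4 lactate genes changed from E15.5 to P1, 3 falling and 1 rising, where 46.3% of all genes changed. Lactate dehydrogenase A (Ldha), whose subunit is known for lactate formation, stood at 418, 390 and 771 CPM at E15.5, 264, 246 and 210 CPM at P1, 195, 179 and 172 CPM at P7, 191, 234 and 203 CPM at P14 and 141, 170 and 161 CPM in MB. E15.5 was above and MB below every other library. Ldha fell 2.19-fold from E15.5 to P1 (log2 -1.13 ± 0.22, FDR 9.00e-04) and was not called in any other pair of groups tested. Ldhb, the form of oxidative tissues, fell by 0.82 in that step (FDR 0.00757, and 0.101 with the counting set as a term) and was lower in MB than at P14 (-0.76, FDR 0.0106), the latter lost without MB replicate 2 (FDR 0.0509).

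The 2 lactate transporters moved in opposite directions from E15.5 to P1, and both were lower in MB than at P7 and P14. Slc16a1, which encodes MCT1 and is also found in brain endothelium, stood at 32.2, 28.9 and 36.4 CPM at E15.5, 167, 216 and 348 CPM at P1, 146, 110 and 130 CPM at P7, 417, 439 and 403 CPM at P14 and 44.9, 55.7 and 62.8 CPM in MB. No 2 of the 5 groups overlapped. Slc16a1 (chr3:104442591-104462385 in mm9, plus strand) rose 7.48-fold from E15.5 to P1 (log2 2.90 ± 0.25, FDR 6.36e-07), fell by 0.92 from P1 to P7 (FDR 0.0432) and rose 3.27-fold from P7 to P14 (1.71 ± 0.23, FDR 0.00465). It was 2.36-fold lower in MB than at P7 and 7.70-fold lower than at P14 (-2.95 ± 0.24, FDR 2.89e-07). The fall to P7 was lost without any of 5 libraries (P1 replicates 2 and 3 and the 3 of P7, FDR 0.0851 to 0.155). Slc16a1 and the summed endothelial markers shared the order P14, P1, P7, and then MB and E15.5, over group means. The summed oligodendrocyte and astroglial markers had that order too, and the part of any of these cells in the Slc16a1 values was not tested.

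Slc16a3 encodes MCT4, the exporter of strongly glycolytic cells. It stood at 24.0, 20.9 and 32.8 CPM at E15.5, between 2.48 and 4.43 CPM in the postnatal libraries and at 1.03, 1.95 and 2.40 CPM in MB. The embryonic libraries were thus set far apart from all others. Slc16a3 (chr11:120810395-120822182 in mm9, plus strand) fell 7.36-fold from E15.5 to P1 (log2 -2.88 ± 0.32, FDR 7.19e-06) and was lower in MB than at P7 (-1.01, FDR 0.0210) and P14 (-1.14, FDR 0.00699). The difference from P7 was lost without P7 replicate 1 (FDR 0.0801), P7 replicate 3 (FDR 0.0799) or MB replicate 1 (FDR 0.0568), and it was -1.76 within the set of P7.

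In the mitochondrial group the calls lay in the kinases of pyruvate dehydrogenase, in the pyruvate carrier and in pyruvate carboxylase. Pdha1 (111 to 177 CPM over all libraries) and Pdhb (42.0 to 122 CPM) encode the catalytic E1 subunits, and neither was called in any pair of groups tested. Of the 4 kinases that inactivate the complex, Pdk4 stood at 0.436, 0.334 and 0.683 CPM at E15.5 and at 2.85 to 7.87 CPM in the postnatal libraries. This was a 10.6-fold rise from E15.5 to P1 (log2 3.41 ± 0.44, FDR 2.86e-05) without overlap, and the value was 4.32 with the counting set as a term. Pdk2 stood at 113, 111 and 104 CPM at E15.5 and at 44.0, 40.8 and 54.5 CPM at P1, a fall of 1.23 (FDR 2.06e-04), and was lower in MB than at P7 (-0.74, FDR 0.00973) and P14 (-1.19, FDR 2.01e-04).

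Pdk1, a kinase gene known as a target of hypoxia-inducible factor, did not pass the test in any pair of ages tested, at 16.6 to 38.3 CPM. In MB it stood at 10.8, 2.20 and 1.80 CPM, below all GNP libraries but with MB replicate 1 several times above the other two. It was lower than at P7 (log2 -2.02 ± 0.49, FDR 0.00449) and P14 (-2.53 ± 0.50, FDR 6.09e-04). Without MB replicate 1 these values were -3.30 and -3.81. Within the set of P7, where MB replicate 1 is the tumour library, the difference of Pdk1 from P7 was -0.84 and was not called (FDR 0.0999), and that of Pdk2 was -0.26 (FDR 0.561). MB replicate 1 also held 460 CPM of 9 microglial markers against 203 and 173 CPM in the other MB libraries, and the part of these cells was not tested. Pdk3 was not called in any pair of groups tested. With the counting set as a term it rose from E15.5 to P1 (0.80, FDR 0.00937), and within the set of P1 and P14 the value was 0.61.

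Pcx, pyruvate carboxylase, which brain tissue has mainly in astrocytes, rose from 39.4, 29.98 and 59.8 CPM at E15.5 to 95.4, 106 and 96.7 CPM at P1 (log2 1.20 ± 0.37, FDR 0.0161). The ranges did not overlap, but the call was lost without E15.5 replicate 1 (FDR 0.0542) or 2 (FDR 0.0654), and the change was 0.83 with the counting set as a term (FDR 0.243). The 9 astroglial markers summed to 347 to 360 CPM at E15.5 and 2369 to 4072 CPM at P1, all 9 higher, and their part in the Pcx values was not tested. The 2 subunits of the mitochondrial pyruvate carrier were both lower in MB than at P14, Mpc1 by 0.83 (FDR 0.0140) and Mpc2 by 1.18 (log2, FDR 0.0143). Both calls were lost without P14 replicate 2 (FDR 0.0524 and 0.0512) and that of Mpc2 also without MB replicate 1 (FDR 0.0542), and the Mpc1 difference was -0.12 (FDR 0.792) in the transcript table. The rise of Mpc1 from E15.5 to P1 (1.13, FDR 0.00279) was 0.18 and not called in the transcript table (FDR 0.686).

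Balance between isoforms was compared within each library as the share of counts per kilobase of exon, with an exact permutation test over all 15400 splits of the 12 GNP libraries into 4 ages and adjustment over 5 shares. The Hk2 share of hexokinase Hk1 and Hk2 was 6.41% ± 2.09 (SD, n = 3) at E15.5. It was 34.2% ± 9.70 (P1), 23.8% ± 11.45 (P7), 20.8% ± 1.47 (P14) and 95.7% ± 0.449 (MB), and it differed among the ages (exact adjusted p = 0.0223). E15.5 lay below every postnatal library and MB above all others. Leaving out any E15.5 library moved that exact p to between 0.0581 and 0.0662. The Slc2a1 share of Slc2a1 and Slc2a3 was 55.4% ± 8.40 (E15.5), 75.6% ± 3.10 (P1), 62.2% ± 6.30 (P7) and 78.0% ± 2.40 (P14), with an exact adjusted p of 0.0223, and 30.55% ± 1.90 in the tumour. It was lowest in MB, with no overlap with GNPs.

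The Ldha share of Ldha and Ldhb was 64.8% ± 2.43 (E15.5), 60.3% ± 5.995 (P1), 50.3% ± 4.75 (P7) and 49.2% ± 1.05 (P14; exact adjusted p = 0.0223). Group means were thus lower at each later age, and the P1 libraries lay above those of P7, while E15.5 and P1, and P7 and P14, overlapped. In MB it was 55.2% ± 7.30, within the range of the GNPs. The Eno1 share of Eno1 and Eno2 was 76.4% ± 5.36, 68.8% ± 22.2, 72.6% ± 5.85 and 41.7% ± 4.81 over the ages, with an exact adjusted p of 0.0712, and 96.3% ± 2.59 in MB. These shares depend on the table used, since the gene table held 28.0% of the transcript counts of Eno1 and 97.8% of those of Eno2. Which table is nearer to the true balance was not tested. From the transcript table the Eno1 share was 91.8% ± 2.38, 87.99% ± 11.5, 89.8% ± 3.58 and 68.3% ± 2.49 over the ages (SD, n = 3, exact adjusted p = 0.0242) and 99.2% ± 0.356 in MB, so that Eno1 was the larger of the pair at P14 in that table and the smaller in the gene table. At P1 the library labelled replicate 3 had an Eno1 share of 44.35%, against 87.8% and 74.1% in the others, and without it the exact adjusted p was 0.0139. The Pfkp share of the 3 phosphofructokinase genes was 17.4% ± 8.13, 19.95% ± 1.45, 16% ± 1.31 and 18.1% ± 0.543 over the ages (exact adjusted p = 0.759), and without E15.5 replicate 3, at 8.30%, the exact adjusted p was 0.0219. The Pfkl share, given without a test, was 34.3% at E15.5, 12.5% at P14 and 28.3% in MB.

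**Figure D5:**
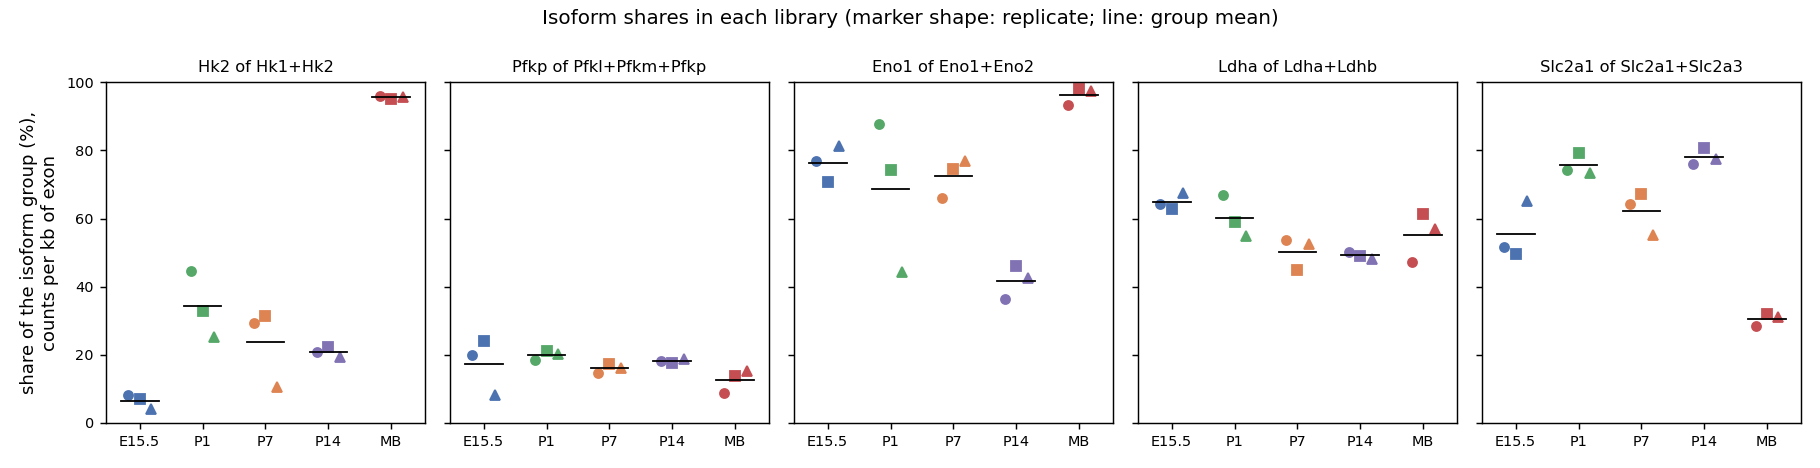
Share of 1 isoform within its isoform group (percent of counts per kilobase of exon) in each library, with marker shapes for replicates and a line at the group mean. The Hk2 share is 6.41% on average at E15.5 and 95.7% in MB, the Slc2a1 share is lowest in MB at 30.55%, and the Eno1 share of the gene table is lowest at P14 at 41.7%.

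Scaled to exon length in the gene table, Pkm had the highest level of the 33 genes with a length at E15.5 (563 CPM per kilobase), P1 (221), P7 (256) and MB (308). Aldoa led at P14 with 305 ± 17.6 CPM per kilobase, ahead of Pkm at 229 ± 22.0 (SD, n = 3). In MB the second place was taken by Hk2, at 143 ± 35.0 CPM per kilobase, which does not differ from Aldoa at 130 ± 7.94 beyond its spread. The 5 genes with a low share in the gene table stood lower in this order than in that of the transcript table, and which is nearer to their true place was not tested. In the transcript table Gapdh was first in all 5 groups, at 1301 CPM per kilobase at E15.5, 445.8 at P14 and 984 in MB, and Hk2 in MB came after Gapdh and Pkm.

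Further genes of glucose metabolism were examined as 3 lists. Of 27 tested genes of glycolysis and pyruvate metabolism outside the 34, 6 rose and 2 fell from E15.5 to P1 (median log2 change 0.34), where 25.4% of all genes rose and 20.9% fell. In MB 7 were higher and 4 lower than at P7 (median -0.10; 13.7% and 20.7% of all genes), and 7 were higher and 9 lower than at P14 (median -0.33; 22.9% and 27.2% of all genes). The insulin-responsive glucose transporter gene Slc2a4 was 5.70-fold higher in MB than at P7 (92.0 ± 16.2 against 16.1 ± 2.87 CPM, FDR 2.36e-07). Aldoc, the aldolase of astrocytes, rose 13.54-fold from E15.5 to P1 (FDR 1.50e-05). Of 8 pentose phosphate genes, 1 rose and 5 fell from E15.5 to P1 (25.4% and 20.9% of all genes), with a median of -0.77 and transketolase (Tkt) 2.57-fold lower. In MB 1 was higher and 2 lower than at P7 (13.7% and 20.7% of all genes), and 1 was higher and 1 lower than at P14 (22.9% and 27.2% of all genes). Of 22 tested genes of the hypoxia response, 5 rose and 4 fell from E15.5 to P1 (median -0.14), where 25.4% and 20.9% of all genes did. In MB 4 were lower than at P7 and 18 were not called (median -0.03; 20.7% of all genes were lower), and 3 were higher and 8 lower than at P14 (median -0.04; 22.9% and 27.2%). Epas1, the endothelial hypoxia-inducible factor, rose 40.8-fold from E15.5 to P1 (FDR 6.00e-07) and was 4.73-fold lower in MB than at P14. Bnip3, a mitophagy receptor that hypoxia induces, was 2.24-fold lower in MB than at P7 (FDR 0.0177), although the ranges overlapped.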

How the data were processed

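Poly(A) RNA-seq of 15 mouse libraries was analysed from raw counts deposited by the authors: a gene table (HTSeq format, 21889 genes), a transcript table (28246 transcripts) and a table of transcription start site models, none of them normalized, per the files. The submitters' processing notes name Trimmomatic, TopHat, StringTie and HTSeq and the build mm9; versions, strand setting and the treatment of reads with several alignments outside the gene table are not given in the sources used here. Summary lines that name no gene were left out of library sizes; 39.5% to 55.4% of a library's records were counted in genes and 22.9% to 44.6% had several alignments.

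Symbols were matched by Ensembl gene ID for 20358 genes. The 34 genes and the other lists were chosen with earlier results of these data known. Genes were filtered (filterByExpr, minimum count 10, total 15), scaled with TMM and tested with edgeR 4.0.16 (R 4.3.3) by the quasi-likelihood F-test with 1 mean per group over all 15 libraries (10 residual degrees of freedom), Benjamini-Hochberg over 15259 genes, with calls at an FDR under 0.05. SE is the log2 change divided by the root of F. CPM are counts per 1e+06 of TMM-scaled library size, and lengths are those of the merged exons of all matched transcripts of a gene. DESeq2 1.42.0, other scaling, no filter, the other tables, the replicate number as a block, counting set, and leaving out each library were alternatives. In simulated data for MB against P7, 85% of 100 genes changed 4-fold and 33% of 100 changed 2-fold were recovered, over 15055 genes. All 34 genes could be named; of the other lists, at most the 2 called genes with the largest change per comparison and a mean of at least 5 CPM. With 3 against 3 libraries an exact permutation test cannot go below 0.10, so isoform shares were tested over 4 ages together.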

Additional observations from a re-analysis of the deposited data

How the results depend on the processing

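Over all genes named and settings, 3443 results kept their side of the threshold, 142 were no longer called and 77 became called. Only 1 result that was called in either fit reversed: the change of Gapdh from E15.5 to P1, -1.37 in the transcript table. Changes of sign in results called in neither fit were not counted. Replicate numbers did not pair the libraries (correlations of deviations between same-numbered libraries -0.312 to 0.332, median -0.013 over 30 pairs; 4 of 15 libraries correlated best with their own number). With the replicate block, 0 of the 34 genes fell from P1 to P7, where 107 of all genes rose and 141 fell. For that step 1 gene fell in the start site table, which tests 24 of the 34, 0 with the counting set as a term, 0 with both groups alone, and 0 to 2 with a library left out. From P7 to P14, 8 rose by DESeq2, 2 with the set term, 12 with the groups alone and 2 to 3 with a library left out. From P1 to P14, 7 rose and 1 fell by DESeq2, 8 and 1 with the groups alone, 10 and 1 within the set of P1 and P14, and 0 to 7 rose and 0 to 1 fell with a library left out; 2 rose in the transcript table. From E15.5 to P1, 3 rose in the start site table. In MB, 6 were lower than P7 in the start site table and 6 with the groups alone, 10 lower than P14 in the start site table and 5 higher within the set. The start site table called 16 over the 4 ages. The exact adjusted p of the Eno1 share was 0.0242 in the transcript table and 0.0139 to 0.139 with a library left out, that of Hk2 0.0101 to 0.0662 and that of Pfkp 0.0219 to 0.865.

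Counts of all genes moved too. From P1 to P7, 509 rose and 700 fell by DESeq2, 76 and 121 with the set term, and 1 to 484 and 8 to 404 with a library left out. From P7 to P14, 1435 rose by DESeq2, 217 rose and 78 fell with the set term, 2257 and 1581 with the groups alone, and 86 to 507 and 36 to 570 with a library left out. From P1 to P14, 1178 rose by DESeq2, 1919 rose and 2170 fell with the groups alone, 2180 and 2534 within the set, and 2 to 1479 and 145 to 1235 with a library left out. From E15.5 to P1, 2488 rose by start site counts, 1343 were higher in MB than P7 with the groups alone, and within the set of P7 5004 differed among the ages tested. Within a set, E15.5 or MB has 1 library, which was taken to vary like the others, and no value exists for P7 against P1 or P14. Called in every leave-one-out were 18 of 20 genes for E15.5 to P1, 0 of 2, 2 of 4 and 0 of 4 for the postnatal steps (P1 to P7, P7 to P14, P1 to P14), 10 of 13 for MB against P7 and 13 of 20 against P14.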
